A study of Mus musculus with 16 samples.

Results

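The mitochondrial carrier family comprises the transporters of the inner mitochondrial membrane that carry nucleotides, phosphate, carboxylates, amino acids and cofactors between the cytosol and the matrix. In the mouse heart data described here, its members were all genes whose symbol begins with Slc25a, with 1 probe set (a group of probes for 1 transcript) per gene, the one with the highest mean over the 16 arrays. This gave 46 genes of the 19938 that have a probe set with a single gene symbol. This rule used no comparison between groups, though the members were chosen with earlier results of these data known. Of the 46, 40 had a mean above the 40th percentile of all probe sets (a log2 value of 4.37) and were tested. The other 6, Slc25a2, Slc25a14, Slc25a21, Slc25a31, Slc25a53 and Slc25a54, lay below it. None of the 40 tested carriers passed the test in any of 7 comparisons, so the values below describe how far their transcripts can have moved, not changes that were shown.

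RNA was measured in whole hearts of male C57BL/6 mice in 4 groups of 4, with 1 array per mouse. Conditional knockout mice lacking Zbtb17 (cKO) had transverse aortic constriction (TAC), a narrowing of the aorta that makes the left ventricle pump against raised pressure. Further cKO mice had a sham operation, and control mice had either TAC or sham. The mice were 8 to 10 weeks old before surgery, and the hearts were collected after 4 weeks. Zbtb17 encodes Miz1, a zinc finger transcription factor that binds DNA and can partner with Myc. The Cre line, the cells in which the gene was deleted, the deleted exons and the alleles carried by the control mice are not given in the sources used here. The labels give no batch. The p-values measure the spread between these mice.

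Carriers of this family share 1 fold and mostly work by exchange, taking a substrate in for every one that leaves. In heart muscle the adenine nucleotide translocators send ATP out for ADP, the phosphate carrier returns the phosphate that ATP synthase needs, and the carnitine carrier brings in acylcarnitines for fatty acid oxidation. The oxoglutarate carrier and the aspartate-glutamate carriers form the malate-aspartate shuttle, which moves reducing equivalents of cytosolic NADH into the matrix. These are standard roles, stated here as background.

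Several values of the whole data set bear on the carriers. Spearman correlation between arrays lay between 0.972 and 0.987, and control sham replicate 1 had the lowest mean correlation (0.974) with the rest of its group. Zbtb17 itself was at 6.47 to 6.52 in cKO TAC, 6.47 to 6.62 in cKO sham, 6.30 to 6.56 in control TAC and 6.19 to 6.50 in control sham hearts. Its difference of cKO minus control averaged over surgery was 0.11 ± 0.055 (SE, limma adjusted p = 0.361), and since the deleted part is not given, this probe set is no check of genotype. All 6 cardiomyocyte markers (Myh6, Actc1, Tnnt2, Tnni3, Ryr2 and Myl2) lay above the filter on every array. The atrial marker Myl7 was above 6 on 6 arrays: cKO TAC replicates 1 (6.07) and 2 (8.83), cKO sham replicate 2 (8.46), control TAC replicates 1 (6.07) and 2 (7.26), and control sham replicate 3 (8.62). On the other arrays Myl7 lay between 4.30 and 5.20, near the filter, and the part of atrial tissue in each sample was not tested. The stress gene Atf3 was above 8 on 3 sham arrays: cKO sham replicate 1 (9.58) and control sham replicates 3 (10.18) and 4 (8.45). Of 4 measured markers of fat, Adipoq and Ucp1 had means below the filter, while Plin1 (4.79 to 5.46) and Cidea (7.18 to 7.86) lay above it. Of 4 markers of skeletal muscle, Myh1 and Myh2 lay below it, while Myh4 (4.11 to 4.54) and Tnni2 (5.92 to 6.43) had means above it. In whole tissue, fewer cells of a type and less RNA per cell cannot be told apart.

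Because Miz1 can partner with Myc, promoters of the carriers were searched for the E-box CACGTG, the site that Myc with its partner Max is known to bind. RefSeq promoters of GRCm38.p6, from 250 bases before to 50 after the start of transcription, were found for 36 of the 46 members, 46 promoters in all. The E-box, which reads the same on both strands, lay in 8 of the 46 (17.4%), belonging to 7 genes, and in 7.15% of all 32851 promoters. Slc25a14 and Slc25a31 hold it too but lay below the filter. The stretches of the 5 tested members are shown here, on the minus strand and 5′ to 3′, with the E-box in capitals, because they allow its surroundings and its place to be compared with the genotype differences below.
Slc25a33, chr4:149774245-149774300: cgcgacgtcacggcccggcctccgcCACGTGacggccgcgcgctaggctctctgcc
Slc25a13, chr6:6217268-6217323: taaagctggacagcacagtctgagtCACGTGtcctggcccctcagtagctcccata
Slc25a15, chr8:22398324-22398379: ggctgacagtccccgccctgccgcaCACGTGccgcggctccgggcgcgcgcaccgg
Slc25a36, chr9:97111198-97111253: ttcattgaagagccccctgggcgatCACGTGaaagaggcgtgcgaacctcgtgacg
Slc25a1, chr16:17928428-17928469: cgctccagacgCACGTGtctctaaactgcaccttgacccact
The E-box began 8 bases before the start in Slc25a33, 77 in Slc25a15, 125 in Slc25a13, 187 in Slc25a36 and 239 in Slc25a1. The NRF1 motif GCATGCGC, searched on both strands, was found for 2 members, Slc25a31 and Slc25a54, in 4.35% of member promoters and 2.71% of all. The oestrogen-related receptor motif TCAAGGTCA, also searched on both strands, was in 0 member promoters and in 0.423% of all. These are matches of letters only, and no site of Miz1 itself was searched for.

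The first question was what TAC did to the carriers in each genotype. In cKO hearts 19 members were higher after TAC and 21 lower, with a median log2 difference of -0.0038 beside 0.0075 over all 21333 probe sets tested. The differences ran from -0.33 for Slc25a47 to 0.37 for Slc25a1. In control hearts 27 members were higher after TAC, 12 lower and 1 equal, with a median of 0.041 beside 0.015, and from -0.27 for Slc25a47 to 0.41 for Slc25a20. That is 67.5% of the members higher in control hearts, where 54.5% of all probe sets were higher, and 47.5% in cKO hearts, where 51.6% were. None passed an adjusted p under 0.05 (limma, Benjamini-Hochberg over all probe sets), which 0% of all probe sets did in either genotype. The smallest adjusted p was 0.726 in cKO and 0.442 in control hearts.

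At an unadjusted p under 0.05, 2 members were higher after TAC in cKO hearts (Slc25a44 and Slc25a1) and 2 lower (Slc25a26 and Slc25a47), beside 3.85% and 2.93% of all probe sets. In control hearts 4 were higher (Slc25a20, Slc25a22, Slc25a44 and Slc25a30) and 2 lower (Slc25a27 and Slc25a47), beside 4.9% and 3.42%. Averaged over genotype, 25 were higher and 15 lower, with a median of 0.024 beside 0.010. There 5 were higher at an unadjusted p under 0.05 (Slc25a17, Slc25a20, Slc25a44, Slc25a10 and Slc25a30) and 2 lower (Slc25a27 and Slc25a47), beside 7.24% and 4.8% of all probe sets, and 0 passed after adjustment (0% of all). The 95% interval of the TAC difference lay within -0.5 and 0.5 for 35 of 40 members in cKO hearts and for 35 of 40 in control hearts, and within -1 and 1 for all 40 in both. A change of more than 2-fold in the group mean therefore lay outside every member's interval.

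**Figure D1:**
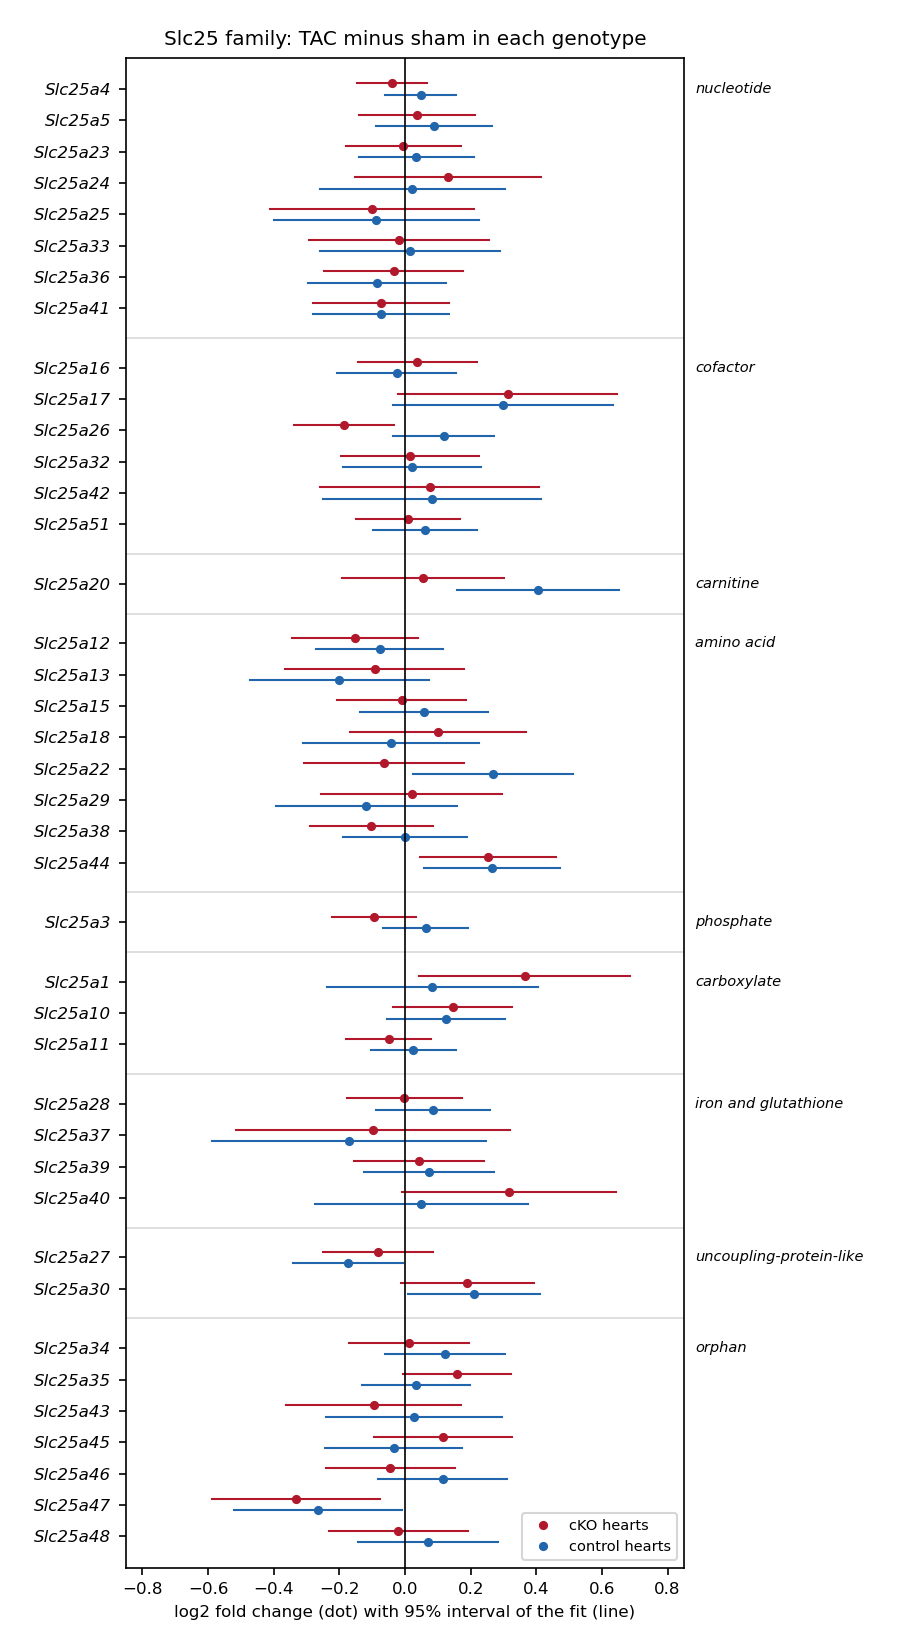
Log2 difference of TAC minus sham (x axis; dot, with the 95% interval of the limma fit as a line) for the 40 members above the filter (y axis), grouped by substrate, in cKO hearts (red, upper line) and control hearts (blue, lower line). Most intervals cross 0, and the differences run from -0.33 to 0.37 in cKO hearts and from -0.27 to 0.41 in control hearts.

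The second question was what the loss of Zbtb17 did under each surgery. After TAC, cKO hearts had 20 members higher than control hearts and 20 lower, with a median of 0 beside -0.0050 over all probe sets. After sham, 25 were higher in cKO hearts, 13 lower and 2 equal, with a median of 0.045 beside 0.0025. Averaged over surgery, 23 were higher, 16 lower and 1 equal, with a median of 0.018 beside -0.0038. No member passed in any of these 3, and the shares of all probe sets that passed were 0.00469% after TAC, 0.0234% after sham and 0.0188% averaged over surgery. The smallest adjusted p was 0.563 after TAC (Slc25a28 and Slc25a26), 0.389 after sham (Slc25a32) and 0.162 averaged over surgery (Slc25a32).

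At an unadjusted p under 0.05 after TAC, 2 members were higher in cKO hearts (Slc25a32 and Slc25a40) and 4 lower (Slc25a26, Slc25a20, Slc25a22 and Slc25a28), beside 3.83% and 3.75% of all probe sets. After sham 1 was higher (Slc25a32) and 0 lower, beside 5.96% and 4.72%. Averaged over surgery 2 were higher (Slc25a32 and Slc25a13) and 1 lower (Slc25a28), beside 8.24% and 6.68%. The 4 lower members after TAC are a larger share of 40 than 3.75%, and without cKO TAC replicate 2, the lowest of 16 arrays for 3 of them, 2 remained at that p, beside 3.15% of all probe sets in that fit. The interval lay within -0.5 and 0.5 for 35 of 40 members after TAC and 39 of 40 after sham. The interaction, which is the TAC difference in cKO hearts minus that in control hearts, was positive for 14 members, negative for 25 and 0 for 1, with a median of -0.025 beside -0.013. At an unadjusted p under 0.05 no member was positive and 1 was negative (Slc25a26), beside 1.65% and 2.05% of all probe sets, and 0 passed after adjustment (0% of all). Intervals of the interaction were wider and lay within -0.5 and 0.5 for 30 of 40 members.

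**Figure D2:**
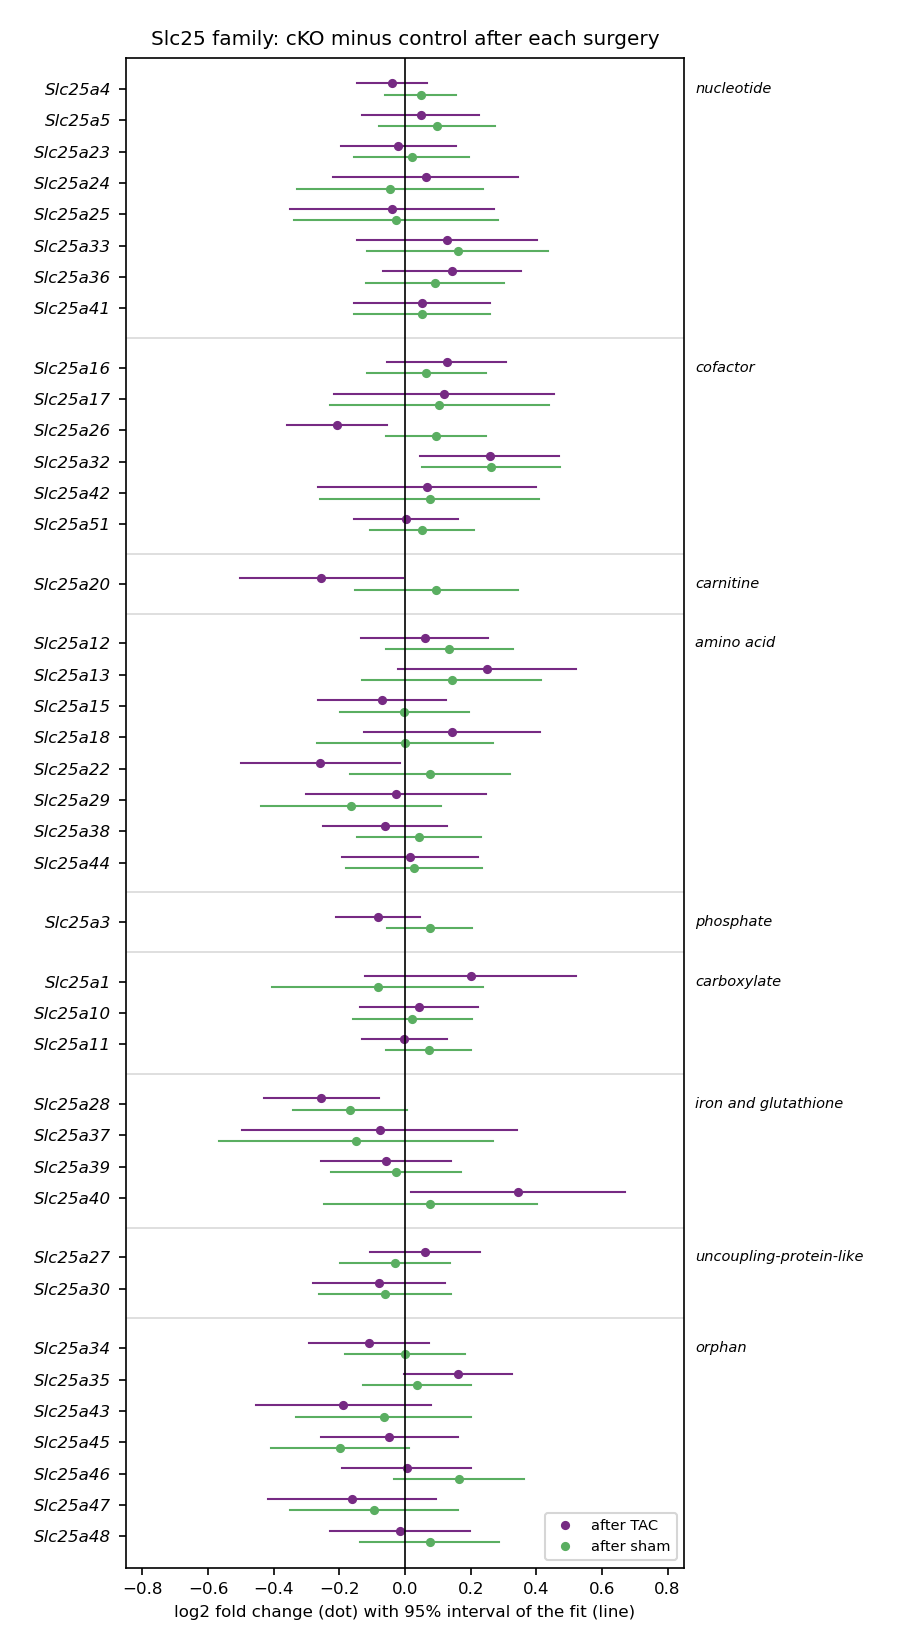
Log2 difference of cKO minus control (x axis; dot, with the 95% interval of the limma fit as a line) for the 40 members above the filter (y axis), grouped by substrate, after TAC (purple, upper line) and after sham (green, lower line). The differences run from -0.26 to 0.35 after TAC and from -0.20 to 0.26 after sham, and Slc25a32 is the one member to the right of 0 with its whole interval under both surgeries.

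The adenine nucleotide translocators overlapped between all groups. Slc25a4, the translocator of heart and skeletal muscle, was at 13.30, 13.12, 13.38 and 13.32 in cKO TAC and 13.31, 13.28, 13.35 and 13.34 in cKO sham hearts. In control hearts it was at 13.30, 13.27, 13.36 and 13.35 after TAC and 13.33, 13.21, 13.30 and 13.25 after sham. All 4 groups overlapped, and the lowest of the 16 values was that of cKO TAC replicate 2. The TAC difference of Slc25a4 was -0.040 ± 0.051 in cKO and 0.048 ± 0.051 in control hearts (SE), and its within-group SD of 0.067 was the smallest of the tested members. Without cKO TAC replicate 2 the difference in cKO hearts was 0.013 ± 0.042. With all arrays, the 95% interval was -0.15 to 0.067 in cKO and -0.060 to 0.15 in control hearts.

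Slc25a5, the translocator present in most tissues, was at 11.52, 11.45, 11.30 and 11.35 in cKO TAC and 11.49, 11.31, 11.29 and 11.38 in cKO sham hearts. Control hearts had 11.24, 11.24, 11.49 and 11.46 after TAC and 11.18, 11.11, 11.38 and 11.41 after sham. The groups overlapped throughout, and the difference of cKO minus control averaged over surgery was 0.073 ± 0.059. It has 3 probe sets, and close relatives of this gene in the genome may share its probes. The other probe sets gave TAC differences of 0.033 and 0.058 in cKO hearts and 0.10 and 0.165 in control hearts, against 0.038 and 0.088 for the one used.

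Slc25a3, the phosphate carrier, which also brings copper into the matrix, was at 11.91, 11.70, 11.91 and 11.93 in cKO TAC and 11.98, 12.02, 11.91 and 11.92 in cKO sham hearts. Control hearts had values of 12.01, 11.88, 11.92 and 11.97 after TAC and 11.87, 11.76, 11.94 and 11.96 after sham. cKO TAC replicate 2 lay apart from the other values of its group. The TAC difference of Slc25a3 was -0.095 ± 0.060 in cKO and 0.063 ± 0.060 in control hearts, and the interaction -0.16 ± 0.085 (SE). Without that array the difference in cKO hearts was -0.041 ± 0.056 and the interaction -0.10 ± 0.076. The signs of the averaged differences of Slc25a3 and Slc25a4 were not stable: for cKO minus control, Slc25a3 was at -0.0038 and took the opposite sign, 0.027 and 0.032, under quantile normalization and median centring, and Slc25a4 was at 0.0038 and at -0.059 under quantile normalization.

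The carriers of ATP-Mg and phosphate, which load and unload the adenine nucleotide pool of the matrix, are Slc25a23, Slc25a24, Slc25a25 and Slc25a41. Their TAC differences ran from -0.10 (Slc25a25) to 0.13 (Slc25a24) in cKO hearts and from -0.088 (Slc25a25) to 0.035 (Slc25a23) in control hearts. Slc25a33 and Slc25a36 carry pyrimidine nucleotides. Averaged over surgery Slc25a33 was at 0.14 and Slc25a36 at 0.12 in cKO minus control, with intervals that include 0. Of the 8 nucleotide carriers tested, 5 were higher and 3 lower in cKO than in control hearts after TAC and 6 higher and 2 lower after sham. At an unadjusted p under 0.05 there were 0 of 8 in either comparison, beside the shares of all probe sets given above.

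No carrier of the malate-aspartate shuttle passed the test. Slc25a11, the carrier that exchanges oxoglutarate for malate, was at 12.10, 11.91, 12.13 and 12.17 in cKO TAC and 12.03, 12.04, 12.23 and 12.21 in cKO sham hearts. Control hearts had 12.07, 12.03, 12.14 and 12.08 after TAC and 12.03, 12.06, 12.05 and 12.08 after sham. The groups overlapped, and the lowest of the 16 values was again that of cKO TAC replicate 2. The TAC difference of Slc25a11 was -0.050 ± 0.061 in cKO and 0.025 ± 0.061 in control hearts, and 0.0058 ± 0.056 in cKO hearts without that array.

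Slc25a12 (aralar), the aspartate-glutamate carrier of heart, muscle and brain, was at 11.11, 10.79, 11.17 and 11.20 in cKO TAC and 11.20, 11.20, 11.26 and 11.22 in cKO sham hearts. Its values in control hearts were 10.84, 11.04, 11.16 and 10.99 after TAC and 10.90, 11.20, 11.13 and 11.11 after sham. In cKO hearts 3 of 4 TAC values lay below all sham values and 1 was tied with the lowest, the array farthest down being cKO TAC replicate 2. The TAC difference of Slc25a12 was -0.15 ± 0.091 in cKO hearts (SE, limma adjusted p = 0.769) and -0.06 ± 0.078 without that array.

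Slc25a13 (citrin), the other aspartate-glutamate carrier, known chiefly from liver, was at 9.31, 8.91, 9.37 and 9.25 in cKO TAC and 9.04, 9.24, 9.49 and 9.44 in cKO sham hearts. In control hearts the values were 8.75, 8.91, 9.06 and 9.12 after TAC and 9.0, 9.32, 8.99 and 9.33 after sham. After TAC, 3 of 4 cKO values lay above all control values, and cKO TAC replicate 2 lay among the controls. The difference of cKO minus control was 0.25 ± 0.13 after TAC, 0.14 ± 0.13 after sham and 0.20 ± 0.091 averaged over surgery (SE, limma adjusted p = 0.326). Without cKO TAC replicate 2 the difference after TAC was 0.35 ± 0.125, and it was not called either. Of the 5 tested members with the E-box shown above, Slc25a13, Slc25a33 (0.14), Slc25a36 (0.12) and Slc25a1 (0.059) were higher and Slc25a15 (-0.036) lower in cKO hearts averaged over surgery. In that comparison 57.5% of the tested members and 48.7% of all probe sets were higher. The intervals of Slc25a33, Slc25a36, Slc25a1 and Slc25a15 included 0, and no relation to the motif was tested.

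**Figure D3:**
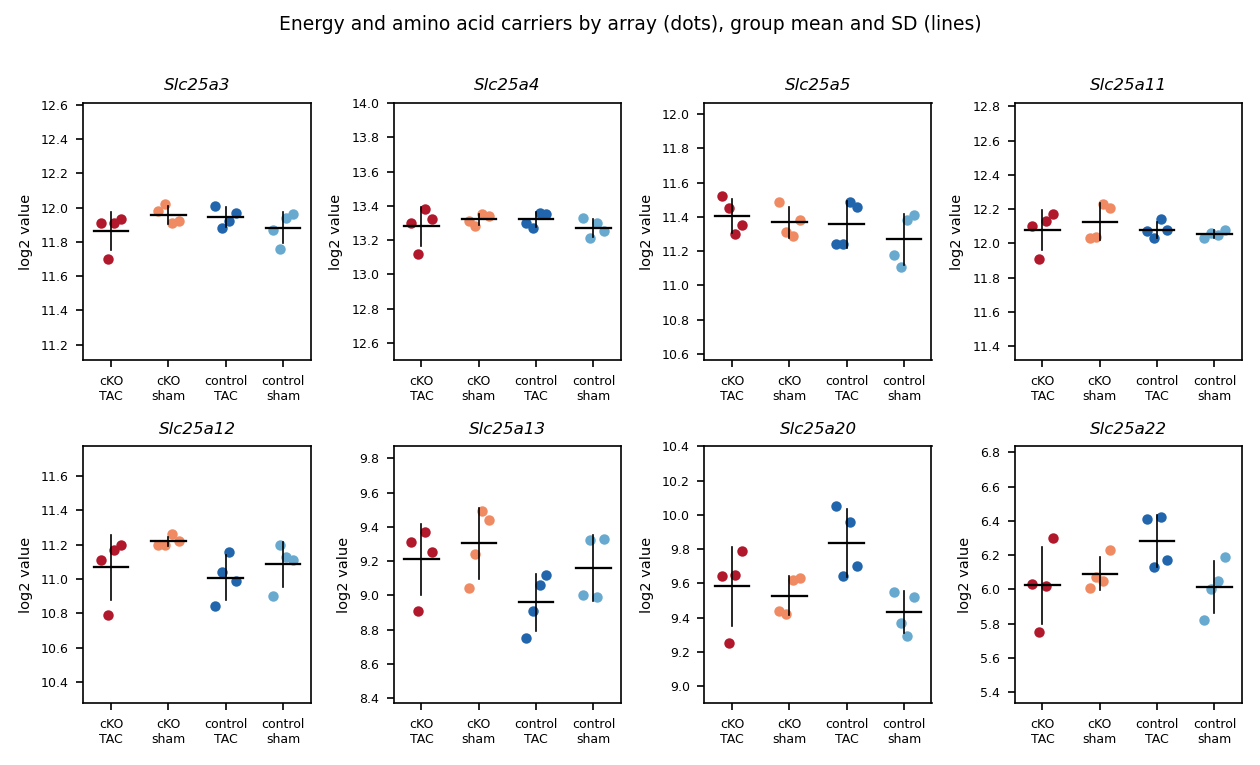
Log2 value (y axis, the same span in each panel) of 8 energy and amino acid carriers in each array (dots), with the group mean (horizontal line) and SD (vertical line, n = 4), for cKO TAC, cKO sham, control TAC and control sham hearts. The groups of Slc25a3, Slc25a4, Slc25a5 and Slc25a11 overlap, and the 4 control TAC values of Slc25a20 (9.64 to 10.05) lie above the 4 control sham values (9.29 to 9.55).

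Slc25a20 had the smallest p of the family for TAC in control hearts. This carrier exchanges acylcarnitine for carnitine and so feeds fatty acid oxidation. It was at 9.64, 9.25, 9.65 and 9.79 in cKO TAC and 9.44, 9.42, 9.62 and 9.63 in cKO sham hearts. Control hearts had values of 10.05, 9.64, 9.96 and 9.70 after TAC and 9.55, 9.37, 9.29 and 9.52 after sham. All 4 control TAC values lay above all control sham values, while the cKO groups overlapped. Group means were 9.58 ± 0.23 in cKO TAC, 9.53 ± 0.11 in cKO sham, 9.84 ± 0.20 in control TAC and 9.43 ± 0.12 in control sham hearts (SD, n = 4 each). The TAC difference was 0.055 ± 0.12 in cKO and 0.41 ± 0.12 in control hearts, a 1.32-fold difference with an interval of 0.16 to 0.65 (SE, limma adjusted p = 0.442).

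The difference between these TAC effects of Slc25a20, the interaction, was -0.35 ± 0.17 (SE, unadjusted p = 0.0503, limma adjusted p = 1). After TAC the cKO hearts were -0.26 ± 0.12 relative to control hearts (limma adjusted p = 0.647). cKO TAC replicate 2 had the lowest of the 16 values (9.25). Without it the TAC difference in cKO hearts was 0.17 ± 0.105, cKO minus control after TAC was -0.14 ± 0.105, and the interaction was -0.24 ± 0.14. Of the genes that work beside Slc25a20, carnitine palmitoyltransferase Cpt1a had a TAC difference of 0.058 ± 0.13 in cKO and 0.215 ± 0.13 in control hearts (SE, limma adjusted p of 0.958 and 0.676). Cpt2 was at -0.13 ± 0.13 in cKO and 0.12 ± 0.13 in control hearts, and carnitine acetyltransferase Crat at -0.058 ± 0.10 in cKO and 0.0025 ± 0.10 in control hearts.

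Among amino acid carriers Slc25a44, a carrier of branched-chain amino acids, had TAC differences of nearly equal size in both genotypes. It was at 7.51, 7.27, 7.52 and 7.28 in cKO TAC and 7.21, 7.20, 7.14 and 7.02 in cKO sham hearts. In control hearts it was at 7.39, 7.37, 7.33 and 7.43 after TAC and 6.81, 7.21, 7.26 and 7.18 after sham. In both genotypes all 4 TAC values lay above all 4 sham values. The difference was 0.25 ± 0.098 in cKO and 0.27 ± 0.098 in control hearts, and 0.26 ± 0.069 averaged over genotype (SE, unadjusted p = 0.00183, limma adjusted p = 0.233). Averaged over genotype, its interval was 0.11 to 0.41.

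Slc25a22, a glutamate carrier, was at 6.03, 5.75, 6.02 and 6.30 in cKO TAC and 6.01, 6.07, 6.05 and 6.23 in cKO sham hearts. In control hearts the values were 6.41, 6.13, 6.42 and 6.17 after TAC and 5.82, 6.0, 6.05 and 6.19 after sham. Control TAC values overlapped control sham values in part, with 2 of 4 above all of them. The TAC difference was -0.065 ± 0.12 in cKO and 0.27 ± 0.12 in control hearts, with an interaction of -0.33 ± 0.16 (SE, limma adjusted p = 1). Without cKO TAC replicate 2, the lowest of the 16 values, the difference in cKO hearts was 0.027 ± 0.11 and the interaction -0.24 ± 0.15. Of the other tested amino acid carriers, Slc25a15 (ornithine), Slc25a18 (glutamate), Slc25a29 (basic amino acids) and Slc25a38 (glycine) had TAC differences from -0.10 to 0.10 in cKO and from -0.12 to 0.058 in control hearts. Of the 8 amino acid carriers, 3 were higher and 5 lower after TAC in cKO hearts, and 3 higher and 4 lower in control hearts.

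Slc25a17, the carrier of peroxisomes for coenzyme A and related cofactors, was at 6.89, 6.65, 6.82 and 7.05 in cKO TAC and 6.78, 6.25, 6.78 and 6.35 in cKO sham hearts. Control hearts had values of 6.98, 6.39, 6.82 and 6.74 after TAC and 6.65, 6.08, 6.52 and 6.49 after sham. In each genotype 3 of 4 TAC values lay above all sham values. The TAC difference was 0.31 ± 0.16 in cKO and 0.30 ± 0.16 in control hearts, and 0.31 ± 0.11 averaged over genotype (SE, limma adjusted p = 0.307).

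Slc25a32, the carrier that brings folate or FAD into the matrix, had the smallest p of the family for genotype after sham and averaged over surgery, though not after TAC. It was at 7.73, 7.84, 7.62 and 7.52 in cKO TAC and 7.50, 7.79, 7.76 and 7.60 in cKO sham hearts. Control hearts had 7.32, 7.41, 7.59 and 7.36 after TAC and 7.27, 7.45, 7.29 and 7.59 after sham. Under each surgery 3 of 4 cKO values lay above all control values and the groups overlapped by 1 cKO array. The difference of cKO minus control was 0.26 ± 0.099 after TAC, 0.26 ± 0.099 after sham and 0.26 ± 0.070 averaged over surgery, a 1.20-fold difference with an interval of 0.11 to 0.41 (SE, limma adjusted p = 0.162). Without the 6 arrays with Myl7 above 6, which include cKO TAC replicate 2, the difference was 0.095 after TAC and 0.14 averaged over surgery.

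Slc25a26, which brings S-adenosylmethionine into the matrix, was the one member with an interaction at an unadjusted p under 0.05. It was at 7.23, 7.04, 7.10 and 7.14 in cKO TAC and 7.24, 7.30, 7.26 and 7.45 in cKO sham hearts. Control hearts had values of 7.35, 7.31, 7.28 and 7.40 after TAC and 7.18, 7.25, 7.32 and 7.12 after sham. All 4 cKO TAC values lay below all cKO sham values and below all control TAC values. The TAC difference was -0.19 ± 0.072 in cKO and 0.12 ± 0.072 in control hearts, and the interaction -0.30 ± 0.10 (SE, unadjusted p = 0.00906, limma adjusted p = 1). Without cKO TAC replicate 2 the interaction was -0.27 ± 0.105. Slc25a16, Slc25a42 and Slc25a51, which serve coenzyme A and NAD, had TAC differences from 0.01 to 0.075 in cKO and from -0.025 to 0.083 in control hearts. Without cKO TAC replicate 2 those in cKO hearts were 0.091 for Slc25a16, 0.21 for Slc25a42 and 0.022 for Slc25a51.

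The citrate carrier Slc25a1, which exports citrate for fatty acid synthesis, had the largest TAC difference in cKO hearts. It was at 7.53, 8.04, 7.52 and 7.34 in cKO TAC and 6.92, 7.36, 7.37 and 7.32 in cKO sham hearts. In control hearts it was at 7.40, 7.57, 7.16 and 7.50 after TAC and 7.14, 7.28, 7.61 and 7.27 after sham. The highest of all 16 values was that of cKO TAC replicate 2 and the lowest that of cKO sham replicate 1. The TAC difference was 0.37 ± 0.15 in cKO and 0.083 ± 0.15 in control hearts (SE, limma adjusted p of 0.726 and 0.911). Without cKO TAC replicate 2 it was 0.22 ± 0.14 in cKO hearts. The dicarboxylate carrier Slc25a10 was at 0.145 in cKO and 0.125 in control hearts, and 0.135 ± 0.06 averaged over genotype (SE, limma adjusted p = 0.39).

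Slc25a28 (mitoferrin 2), which carries iron into the matrix, was at 7.40, 7.44, 7.61 and 7.47 in cKO TAC and 7.57, 7.56, 7.40 and 7.40 in cKO sham hearts. Control hearts had values of 7.79, 7.76, 7.74 and 7.65 after TAC and 7.60, 7.86, 7.63 and 7.51 after sham. After TAC all 4 cKO values lay below all control values, and after sham the groups overlapped. The difference of cKO minus control was -0.26 ± 0.082 after TAC, -0.17 ± 0.082 after sham and -0.21 ± 0.058 averaged over surgery (SE, limma adjusted p = 0.165). Slc25a37 (mitoferrin 1), the iron carrier of developing red blood cells, had the widest within-group SD of the family, 0.305, and a cKO minus control difference of -0.078 after TAC and -0.15 after sham. The values of Slc25a37 were 6.67, 6.50, 6.71 and 6.84 in cKO TAC, 6.55, 6.64, 7.04 and 6.88 in cKO sham, 7.02, 6.26, 6.83 and 6.92 in control TAC and 7.09, 6.51, 7.46 and 6.65 in control sham hearts. Of the red blood cell markers, 2 of 4 were measured, both above the filter. Alas2, an enzyme of haem synthesis in red blood cell precursors, was at 6.54, 6.76, 7.21 and 6.59 in cKO TAC, 6.28, 6.38, 7.49 and 7.45 in cKO sham, 7.99, 6.54, 7.25 and 7.58 in control TAC and 7.32, 6.78, 8.23 and 6.50 in control sham hearts. Slc4a1, the anion exchanger of red blood cells, ran from 5.16 to 5.55. The summed level of both ran from 7.01 to 7.61 in cKO TAC, 6.83 to 7.78 in cKO sham, 7.11 to 8.23 in control TAC and 7.01 to 8.43 in control sham hearts. Control sham replicate 3 had the highest value of both Slc25a37 and Alas2, and the part of red blood cells in the values of Slc25a37 was not tested.

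Slc25a40, a glutathione carrier, was at 5.88, 5.65, 6.0 and 6.22 in cKO TAC and 5.12, 5.73, 5.69 and 5.94 in cKO sham hearts. Its values in control hearts were 5.67, 5.41, 5.66 and 5.63 after TAC and 5.57, 5.34, 5.63 and 5.63 after sham. After TAC 3 of 4 cKO values lay above all control values, and cKO sham replicate 1 was the lowest of all 16. The difference of cKO minus control was 0.35 ± 0.15 after TAC and 0.078 ± 0.15 after sham (SE, limma adjusted p of 0.642 and 0.884), and 0.44 ± 0.16 after TAC without cKO TAC replicate 2. The other probe set of Slc25a40 gave 0.075 ± 0.14 after TAC and 0.255 ± 0.14 after sham, so the probe sets disagreed on which surgery showed the larger difference. The related glutathione carrier Slc25a39 was at -0.058 after TAC and -0.028 after sham.

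**Figure D4:**
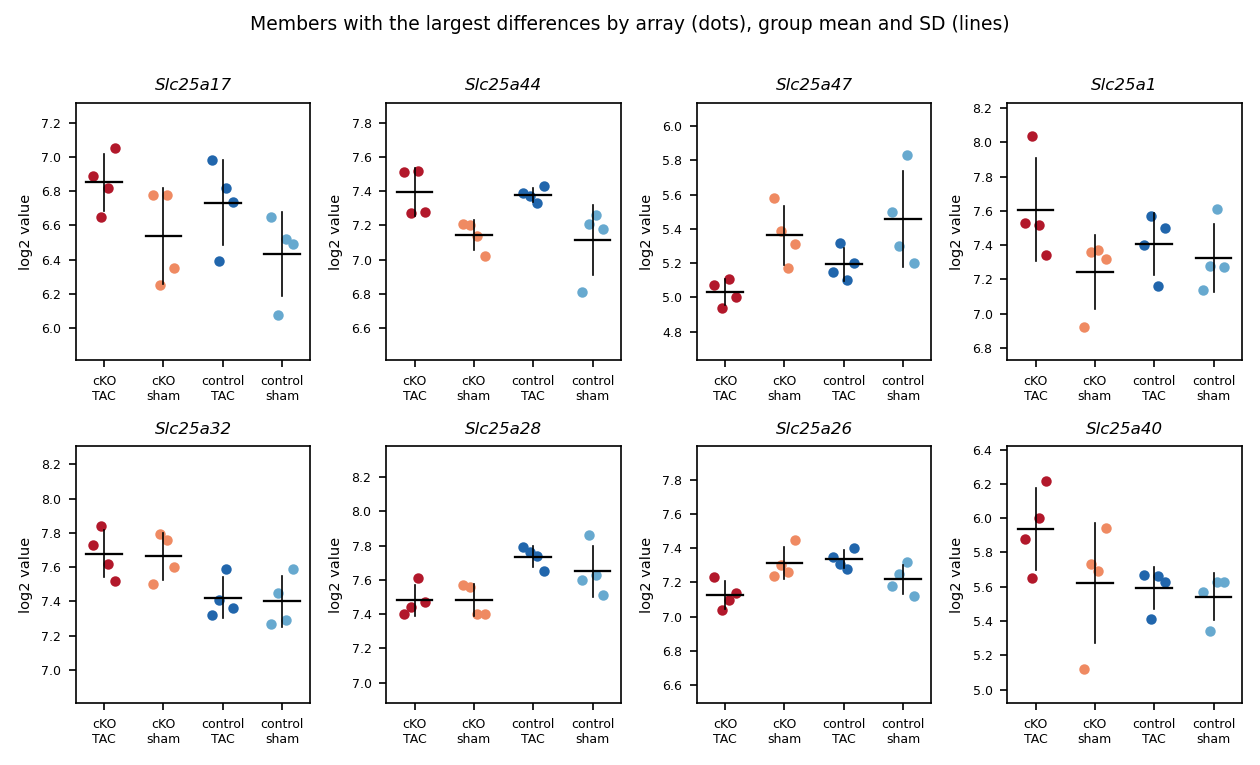
Log2 value (y axis, the same span in each panel) in each array (dots), with the group mean (horizontal line) and SD (vertical line, n = 4), of 8 members among the largest differences, for cKO TAC, cKO sham, control TAC and control sham hearts. TAC values of Slc25a44 lie above sham values in both genotypes, and cKO TAC values of Slc25a28 (7.40 to 7.61) lie below control TAC values (7.65 to 7.79).

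Among members related to uncoupling proteins, Slc25a30 had a TAC difference of 0.19 ± 0.095 in cKO and 0.21 ± 0.095 in control hearts, and 0.20 ± 0.067 averaged over genotype (SE, limma adjusted p = 0.276). Slc25a27 had negative differences, at -0.083 ± 0.079 in cKO and -0.17 ± 0.079 in control hearts, where all 4 TAC values lay below all sham values. Neither passed. Ucp3, the uncoupling protein of muscle, has the same fold without the family symbol. Its difference of cKO minus control was -0.70 ± 0.29 after TAC and -0.59 ± 0.21 averaged over surgery (SE, limma adjusted p of 0.634 and 0.224). Mtch1 and Mtch2 also have the fold without the symbol. Mtch1 was at -0.093 ± 0.092 after TAC and -0.031 ± 0.065 averaged over surgery, and Mtch2 at 0.025 ± 0.084 and 0.084 ± 0.059 (SE).

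Of the members with no settled substrate, Slc25a47, a gene known mainly from liver, had the largest TAC differences. It was at 5.07, 4.94, 5.11 and 5.0 in cKO TAC and 5.58, 5.39, 5.17 and 5.31 in cKO sham hearts. Control hearts had values of 5.15, 5.32, 5.10 and 5.20 after TAC and 5.50, 5.30, 5.83 and 5.20 after sham. In cKO hearts all 4 TAC values lay below all sham values, and in control hearts the groups overlapped. The TAC difference was -0.33 ± 0.12 in cKO and -0.27 ± 0.12 in control hearts, and -0.30 ± 0.085 averaged over genotype (SE, limma adjusted p = 0.236). Without control sham replicate 3, at 5.83, the difference in control hearts was -0.14.

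Slc25a46, a protein of the outer membrane that takes part in mitochondrial fission and fusion, was at 9.64, 9.64, 9.61 and 9.81 in cKO TAC and 9.64, 9.62, 9.85 and 9.77 in cKO sham hearts. In control hearts it was at 9.67, 9.50, 9.84 and 9.67 after TAC and 9.78, 9.49, 9.37 and 9.58 after sham. The groups overlapped, and the difference of cKO minus control was 0.0050 ± 0.093 after TAC and 0.17 ± 0.093 after sham. Slc25a45 was at 5.58, 5.73, 5.82 and 5.80 in cKO TAC and 5.56, 5.58, 5.77 and 5.56 in cKO sham hearts. It was at 5.65, 5.88, 5.77 and 5.82 in control TAC and 6.04, 5.91, 5.72 and 5.59 in control sham hearts. After sham, 3 of 4 cKO values of Slc25a45 lay below all control values, for a difference of -0.20 ± 0.099 (SE, limma adjusted p = 0.494). Slc25a34, Slc25a35, Slc25a43 and Slc25a48 had genotype differences from -0.19 (Slc25a43) to 0.16 (Slc25a35) after TAC and from -0.065 (Slc25a43) to 0.075 (Slc25a48) after sham.

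The 6 members below the filter were fitted only without it. Slc25a2, an ornithine carrier, was at 4.24, 4.16, 4.15 and 4.22 in cKO TAC and 4.25, 4.32, 4.23 and 4.21 in cKO sham hearts. It was at 4.37, 4.37, 4.32 and 4.04 in control TAC and 4.70, 4.43, 4.48 and 4.49 in control sham hearts. Control sham values lay above those of the other 3 groups. With no filter, cKO minus control after sham was -0.27 ± 0.081 (SE, limma adjusted p = 0.342) and TAC minus sham in control hearts -0.25 ± 0.081 (limma adjusted p = 0.409). The germ cell translocator Slc25a31, the oxodicarboxylate carrier Slc25a21, the uncoupling protein relative Slc25a14 and the orphans Slc25a53 and Slc25a54 had no value above 4.55 on any array.

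A single array held many of the family's low values. cKO TAC replicate 2 had the lowest of 16 values for 12 of the 40 tested members, while every other array was lowest for at most 5. These 12 include Slc25a3, Slc25a4, Slc25a11, Slc25a12, Slc25a20 and Slc25a22. It had the highest value for 3 (Slc25a1, Slc25a24 and Slc25a32), and its median deviation from its group mean over the members was -0.088. Over all tested probe sets, deviations from the group mean had an SD of 0.267 on control sham replicate 1 and 0.224 on control sham replicate 2. That SD was 0.219 on cKO TAC replicate 2. The share of all probe sets lowest on cKO TAC replicate 2 was not counted, so the 12 are not shown to be particular to the carriers. On the same array the summed level of the cardiomyocyte markers was the lowest of all 16 (a log2 of the sum of 15.64, others 15.77 to 15.90), and those of atrial (13.85, others 10.65 to 12.95), fibroblast (13.33, others 12.39 to 13.09) and macrophage markers (9.77, others 8.60 to 9.76) were the highest. All 4 atrial, 5 fibroblast and 4 macrophage markers lay above the filter. Of the cardiomyocyte markers, Myh6 (12.88), Tnni3 (13.37) and Myl2 (12.55) were lowest on cKO TAC replicate 2. Actc1 (13.71), Tnnt2 (13.45) and Ryr2 (11.16) were lower on another array (13.64, 13.40 and 11.02). Myl2 also separated by genotype, at 12.55 to 12.89 in cKO and 13.20 to 13.27 in control hearts. Of the macrophage markers, C1qa (7.72) was higher on control TAC replicate 4 (7.84). By group, the summed cardiomyocyte level ran from 15.64 to 15.88 in cKO TAC, 15.86 to 15.90 in cKO sham, 15.78 to 15.90 in control TAC and 15.77 to 15.89 in control sham hearts. The atrial level ran from 11.56 to 13.85 in cKO TAC, 11.74 to 12.63 in cKO sham, 10.65 to 12.95 in control TAC and 11.26 to 12.73 in control sham hearts. The fibroblast level ran from 12.72 to 13.33 in cKO TAC, 12.55 to 12.94 in cKO sham, 12.65 to 12.98 in control TAC and 12.39 to 12.84 in control sham hearts. The macrophage level ran from 8.92 to 9.77 in cKO TAC, 8.64 to 8.85 in cKO sham, 9.11 to 9.76 in control TAC and 8.60 to 9.27 in control sham hearts. The part of these cell types in the carriers' values was not tested.

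Without that array, 25 members were higher and 15 lower after TAC in cKO hearts, with a median of 0.022. The TAC difference of 8 members changed sign there. At an unadjusted p under 0.05, 3 members were higher and 1 lower, beside 2.33% and 1.73% of all probe sets in the same fit. For cKO minus control after TAC the counts were 24 and 16 (median 0.015), and for the interaction 19 and 21 (median -0.0046). No member was called in these comparisons without it, and of all probe sets 1 was called for cKO minus control after TAC and 0 in the others. With all arrays the split for TAC in cKO hearts was nearly even, at 19 higher and 21 lower with a median of -0.0038. Without single arrays this median ran from -0.031 to 0.022. Its move to 0.022 was smaller than the SD of 0.0391 by which medians are judged below. That SD is a spread between single arrays, this one among them, and not that of a difference between group means. Counts of members higher and lower without each of the other arrays are not given here.

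**Figure D5:**
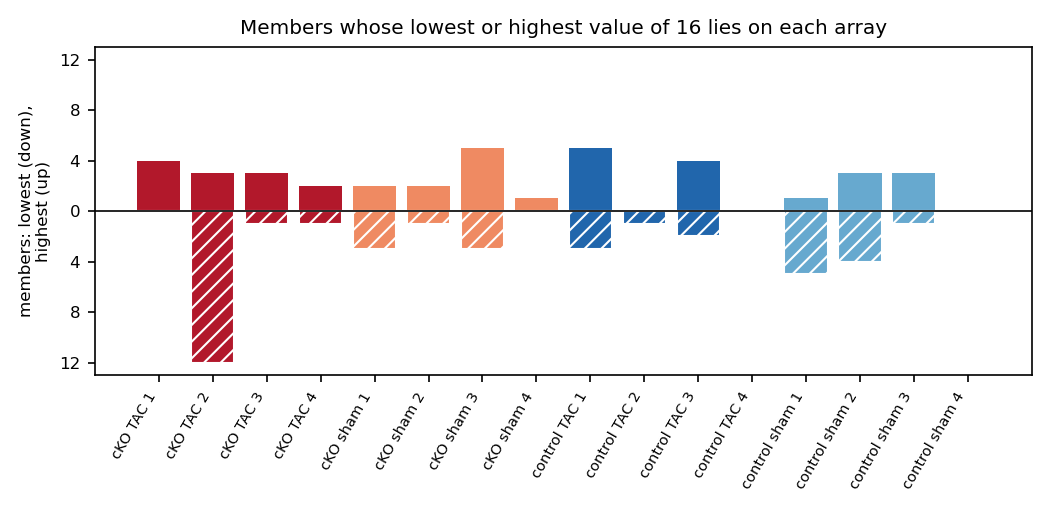
Number of the 40 tested members whose highest (bars upward) or lowest (hatched bars downward) of 16 values lies on each array (x axis, by group and replicate), leaving out ties. cKO TAC replicate 2 holds the lowest value of 12 members, and no other array holds more than 5.

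Of the genes that work around the carriers, 0 were called in any comparison. Of 12 measured genes for the import of carriers into mitochondria, 7 were higher and 5 lower after TAC in cKO hearts, and 11 higher and 1 lower in control hearts (medians 0.01 and 0.15). Tomm22, a receptor of the outer membrane, was at 0.39 ± 0.13 in cKO and 0.25 ± 0.13 in control hearts, and 0.32 ± 0.094 averaged over genotype (SE, limma adjusted p = 0.245). Of 15 partners in transport, such as the porins of the outer membrane and the enzymes of the malate-aspartate shuttle, 3 were higher and 12 lower after TAC in cKO hearts, and 8 higher and 7 lower in control hearts (medians -0.093 and 0.0025). Among 7 regulators of mitochondrial genes, 0 were higher and 7 lower in cKO hearts, and 4 higher and 3 lower in control hearts. Of all probe sets, 51.6% were higher after TAC in cKO hearts and 54.5% in control hearts. In cKO hearts the intervals of Tfam (-0.023), Esrra (-0.04), Atf4 (-0.06), Nrf1 (-0.083) and Ppargc1b (-0.21) included 0. Counts of these lists without cKO TAC replicate 2 are not given here. Ppargc1a, a coactivator of mitochondrial genes, was at -0.50 ± 0.225 in cKO and -0.36 ± 0.225 in control hearts (SE, limma adjusted p of 0.728 and 0.688), and Ppara, a receptor that drives genes of fatty acid oxidation, at -0.48 ± 0.19 in cKO and -0.22 ± 0.19 in control hearts (adjusted p of 0.726 and 0.774). For cKO minus control after sham, 14 partners were higher and 1 lower (median 0.11), and 6 regulators higher and 1 lower (median 0.16). For cKO minus control after TAC, 11 partners were higher and 4 lower (median 0.03), and 4 regulators higher and 3 lower (median 0.055). Import genes were at 7 higher and 5 lower under each surgery. Of all probe sets, 50.1% were higher in cKO hearts after sham and 47.9% after TAC.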

How the data were processed

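RNA of 16 mouse hearts was hybridised to Affymetrix arrays, per the labels. For 35556 probe sets the authors deposited log2 values, and per the submitters' processing notes MAS5 was used, with no version. Base 2 was inferred, since with natural logarithms the top value would stand for 1707000. Scaling between arrays before deposit is not stated in the sources, and scaling of that kind removes shifts shared by all genes.

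Groups came from the sample titles. Gene names came from the platform annotation, updated by Entrez ID to RefSeq GRCm38.p6 (21698 of 21789 probe sets with 1 symbol matched, and all 46 members). Probe sets with several symbols (1621) or unlisted (12146) were not named.

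All 21333 probe sets with a mean above the 40th percentile were fitted with limma 3.58.1 in R 4.3.3: 4 group means, 12 residual degrees of freedom, eBayes with trend, and two-sided p-values with Benjamini-Hochberg adjustment over all of them. A call is an adjusted p under 0.05. Intervals are at 95%. The script was tested on simulated data. The number of arrays limits the precision. Any pair of arrays differed in at least 97.4% of probe sets, so none was deposited more than once.

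The members, lists and substrate groups were chosen with earlier results of these data known. Values in every sample are given for the 7 key carriers and for the 2 members of highest and the 2 of lowest difference in each of 7 comparisons, 18 in all. Those of Slc25a2 and Slc25a37 are given outside that rule, and those of Slc25a2 were added after its values were seen. The settings tried, each alone, were median centring, quantile normalization, the 60th percentile or no filter, a fit with no trend, fits of the compared groups alone, weights for arrays, a replicate block, averaging the probe sets of each gene, and omitting each array. Leaving out the 6 arrays with Myl7 above 6 or the 3 with Atf3 above 8 was added after seeing the data. Figures used matplotlib 3.10.9.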

Additional observations from a re-analysis of the deposited data

Results flagged for a closer look

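Among the 18 members given in every sample by the rule above, 72 sets of 4 values were examined for a value far from the other 3, and 5 were found. Chance finds about 1 in 20 such sets. Slc25a3 was at 11.7 in cKO TAC replicate 2, where the nearest of its group was 11.91. Slc25a1 was at 6.92 in cKO sham replicate 1, with the nearest at 7.32. Slc25a40 was at 5.41 in control TAC replicate 2, with the nearest at 5.63. Slc25a46 was at 9.81 in cKO TAC replicate 4, above the nearest at 9.64, and Slc25a45 at 5.77 in cKO sham replicate 3, above the nearest at 5.58.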

How the results depend on the processing

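No carrier was called under any of the 27 alternatives for the 4 simple comparisons or the 26 for the others. Alternatives were computed for 41 results of single members, those of highest and lowest difference in each comparison and the key carriers in the averaged ones. Of their 1078 values, 1048 kept their direction and their side of the threshold and 30 took the opposite sign, in 5 results of Slc25a3, Slc25a4 and Slc25a11 that lay near 0. Outside these 41, the TAC difference in cKO hearts changed sign without cKO TAC replicate 2 for 8 members, among them Slc25a13 (0.0075), Slc25a15 (0.072) and Slc25a22 (0.027). For cKO minus control averaged over surgery, Slc25a3 was at 0.027 with quantile normalization, 0.032 with median centring, 0.024 without the arrays with Myl7 above 6 and 0.026 without those with Atf3 above 8, and from -0.024 to 0.023 without single arrays. Slc25a4 was there at -0.059 with quantile normalization and from -0.013 to 0.030 without single arrays. For TAC minus sham averaged over genotype, Slc25a3 was at 0.033 and 0.021 without the Myl7 and Atf3 arrays and from -0.037 to 0.011 without single arrays, Slc25a4 from -0.013 to 0.030, and Slc25a11 at 0.023 without the Myl7 arrays and from -0.029 to 0.015 without single arrays.

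The median over members moved in 5 cases by more than 0.0391, the SD between arrays of a group of the members' median deviation. For cKO minus control after sham it was 0.104 with median centring and 0.094 without the Atf3 arrays. For the interaction it was -0.071 with median centring and -0.075 without the Myl7 arrays, and for TAC in control hearts 0.091 without the Myl7 arrays.

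The number of all probe sets called varied. For TAC in control hearts it was 5 with no filter, 1 with only the groups compared and 1 without the Atf3 arrays. For TAC in cKO hearts it was 1 with only the groups compared, and averaged over genotype 1 with no filter. For cKO minus control after sham it was 3 with no trend or only the groups compared, 1 with array weights, and 0 with median centring, the 60th percentile, the replicate block, averaged probe sets per gene or without the Myl7 or Atf3 arrays. For cKO minus control after TAC it was 2 with quantile normalization or array weights, and 0 with no trend, only the groups compared, or without the Myl7 or Atf3 arrays. Averaged over surgery it was 9 with the 60th percentile, 8 with quantile normalization or averaged probe sets per gene, 2 with median centring, no trend or the replicate block, and 1 with no filter or without the Myl7 arrays. Without single arrays the counts ran from 0 to 2 for TAC in control hearts, 0 to 1 in cKO hearts and 0 to 1 averaged over genotype, and from 1 to 2 for cKO minus control after TAC, 0 to 27 after sham and 1 to 81 averaged over surgery. The 27 and 81 came without control sham replicate 4, the count after sham was 0 to 2 without any other array except cKO TAC replicate 3 (5), and the counts averaged over surgery were also above 4 without cKO TAC replicate 3 (12), control TAC replicate 2 (10) and control TAC replicate 3 (7). The causes were not tested. Same-numbered arrays correlated between -0.20 and 0.19 in their deviations from the group means. That shows no strong pairing by number but cannot exclude a weaker one. The replicate block changed no call of a carrier, and 3 of 16 arrays correlated best with one of their own number. With 4 mice a group, half-widths of the 95% interval had a median of 0.207 for TAC in each genotype, so differences of that size could mostly not be told from 0.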
